A study of Mus musculus with 12 samples.

Results

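The ionotropic purine receptors (P2X receptors, genes P2rx1 to P2rx7) were followed in the hypothalamus of male ICR mice that drank only water or had access to alcohol. The 7 genes, of 27827 gene names on the array, had 11 of its 41174 probes, taken as every non-control probe whose gene name was one of P2rx1 to P2rx7. The family was chosen by the signal of P2rx7 in these data, as one of its probes was lower on every alcohol array than on every water array. Differences between alcohol and water are therefore given for these genes as a description, with no test. Tests were made only for contrasts inside the alcohol arrays. The choice did not compare alcohol arrays with each other, but it did use the alcohol values of that P2rx7 probe. The tests were also chosen with earlier results of these data known, so their p-values are not those of tests fixed in advance.

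P2X receptors are cation channels opened by extracellular ATP, and each channel is a trimer of subunits from 1 or more of the genes. In the brain they pass fast signals of ATP released by neurons and glia, and ATP is cleared outside the cell to adenosine, which acts on receptors of its own. P2X7 needs high ATP, is best known from microglia and other immune cells, and is a trigger of the NLRP3 inflammasome, the complex that activates caspase-1 and interleukin 1β. P2X4 is found in neurons and microglia, P2X2 and P2X3 in neurons, and P2X1 in smooth muscle and platelets.

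Mice entered the experiment at 3 weeks of age and had only water in both drinking tubes until day 5. The water group kept water in both tubes, whereas alcohol mice had 5% or 10% alcohol in one tube and water in the other and chose freely. ICR is an outbred strain, and every group was male and killed at the same stage, given as day 51 or day 57 by different sources. RNA was pooled before labelling. The 9 water mice gave 3 pools of 3 mice, and 19 alcohol mice gave 9 pools of 1 to 3 mice. Of the alcohol pools 3 are labelled low, 3 early and 3 late alcohol drinkers. The early and late pools are called early high and late high here, taken to be the 6 pools that drank more. By the study's list of pools, each of the 3 pools that drank less held 3 mice and each of the 6 that drank more held 1 or 2, so that pool size and the amount drunk cannot be told apart. The 9 mice of the former had 5% alcohol in 5 cases and 10% in 4, and the 10 mice of the latter had 5% and 10% in 5 cases each. The list does not tie its pool names to the labels within these sets, and how early and late high drinking were set is not given in the sources used here. P-values measure the spread between pools.

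All 12 arrays were of 1 colour, 4 to a slide. Slide 1 held water 1, 2 and 3 and low 1, slide 2 held low 2 and 3 and early high 1 and 2, and slide 3 held early high 3 and late high 1, 2 and 3. Slide 1 was scanned on another day than slides 2 and 3, so that for alcohol against water only low 1 shared a slide and a scan day with the water arrays. The 75th percentile of the signal, to which each array was scaled, lay between 1512 and 1853, and 67.0% to 79.3% of spots were well above background. Low 2 stood apart in its dim signals. Its lower quartile was 63.2, against 22.3 to 34.0 on the other arrays. Of 10 genes that mark the hypothalamus, including Pomc, Agrp, Hcrt, Oxt and Avp, 9 were well above background on all 12 arrays, and Sim1 was so on 11.

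Levels are log2 signals minus the 75th percentile of the array, so that 0 is the level of that percentile and −1 is 1 doubling below it. Probes differ in how brightly they bind, so levels of different probes were not set against each other. Of the 11 probes, 8 were well above background on all 12 arrays, and these covered 6 genes. The P2rx7 probe with the lower signal was so on 10 arrays, the P2rx1 probe on 1 and the second P2rx3 probe on none. No P2X probe was saturated.

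The sequences below are the array's own probes for the genes on which the results turn. The P2rx7 pair shows where each probe sits in its transcript, and the P2rx4 and P2rx2 probes are those in the coding part. All are 60 bases long, written 5′ to 3′, and the first of them is given by its first 30 bases because it lies beyond the coding part.
P2rx7 probe 1: ttcacttctctctttaaagggaaccatctt
P2rx7 probe 2: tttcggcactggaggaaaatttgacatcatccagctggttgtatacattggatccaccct
P2rx4 probe 2: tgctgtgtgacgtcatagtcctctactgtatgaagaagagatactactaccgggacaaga
P2rx2: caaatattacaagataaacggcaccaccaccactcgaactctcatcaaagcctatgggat

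P2rx7 probe 1, the brighter of the pair, lies at chr5:123134194-123134253 (mm9, plus strand) and begins at base 4831 of transcript variant 1, in the 3′ untranslated region. P2rx7 probe 2 begins at base 1125 of the transcript annotated as variant 2. It is placed at chr5:123120528-123123413, a stretch of 2886 bases for a probe of 60, so it crosses an intron and reads spliced coding sequence. The starts of the probes are 13666 bases apart in the genome. None of the 11 P2X probes shared a run of 16 bases with any other probe of the array on either strand.

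P2rx7 was lower in alcohol than in water on both probes. In bulk tissue, fewer cells of a type and less RNA per cell cannot be told apart. Probe 2 was at −3.92, −4.11 and −3.82 in the water pools, and at −4.65, −4.13 and −4.50 in the low drinkers. It was at −4.57, −4.40 and −4.32 in the early high drinkers and at −4.68, −4.92 and −5.20 in the late high drinkers. Every alcohol array lay below every water array, but the gap between low 2 and water 2 was only 0.02. Low 3 and early high 1 were not well above background. The alcohol mean was 0.640 times the water mean, a log2 difference of −0.64 with a standard error of 0.19. The difference was −0.31 with normexp background correction. Alcohol and water arrays overlapped after quantile normalization, with the array median, with no scaling and with normexp, and with spots not well above background left out the probe lacked a value on 2 arrays. The family was chosen by the order of the arrays on this probe, and over all probes measured on every array 0.325% had all alcohol arrays below all water arrays and 0.982% had all above.

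The brighter P2rx7 probe also had a lower alcohol than water mean, with a smaller difference and with overlap. It was at −0.52, −0.54 and −0.43 in the water pools and at −0.72, −0.69 and −0.68 in the low drinkers. The early high drinkers were at −0.78, −0.83 and −0.51, and the late high drinkers at −0.54, −0.75 and −1.07. All 9 alcohol arrays were below the water mean and 8 were below the lowest water array. Late high 1 (−0.545) nearly met water 2 (−0.540), and early high 3 lay inside the water range. The alcohol mean was 0.850 times the water mean, a log2 difference of −0.23 with a standard error of 0.10.

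**Figure D1:**
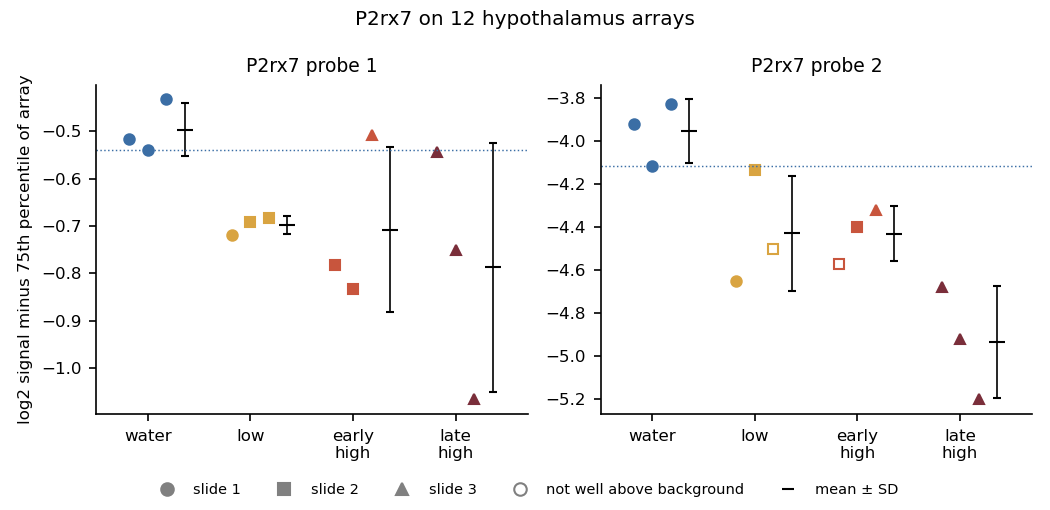
P2rx7 on each array (vertical axis, log2 signal minus the array's 75th percentile) by group, with the shape of a point giving its slide and the dotted line the lowest water array. Open points were not well above background, and bars give the mean ± SD of 3 pools. Probe 2 lay below the water pools on all 9 alcohol arrays and lowest in late high 3 (−5.20), and probe 1 did so on 8 of 9.

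Within slide 1, where arrays shared a scan day, low 1 minus the mean of the 3 water arrays was −0.22 on probe 1 and −0.70 on probe 2, with 1 array on the alcohol side. On probe 2 the sign of this value was fixed by the choice of the family. For the rest of the comparison alcohol, slide and scan day cannot be told apart. The group means of probe 1 ran from water (−0.50 ± 0.06, SD, n = 3) to low (−0.70 ± 0.02), early high (−0.71 ± 0.18) and late high (−0.79 ± 0.26), of which the last 3 lay within each other's spread. On probe 2 the order was water (−3.95 ± 0.15, SD, n = 3), low (−4.43 ± 0.27), early high (−4.43 ± 0.13) and late high (−4.94 ± 0.26). There, low and early high drinkers did not differ beyond their spread.

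The late high drinkers were the lowest group on both P2rx7 probes. Late high minus early high drinkers was −0.51 on probe 2 (standard error 0.16), with an unadjusted p of 0.0116 and an adjusted p of 0.335 by limma over all probes. All 3 late high arrays were below all 3 early high arrays, as they were for 3852 of the 29521 probes measured on every array, and 21.5% of those probes had these groups apart in either direction. The difference stayed below 0 in 24 of 24 alternatives, from −0.63 to −0.25, the last after quantile normalization with an unadjusted p of 0.434 by limma. Inside slide 3 the late high mean was 0.62 below early high 3. On probe 1 the late minus early difference was −0.08 (95% interval −0.36 to 0.20, adjusted p = 0.832 by limma). The high minus low difference was −0.25 on probe 2 (interval −0.57 to 0.06, adjusted p = 0.397 by limma) and −0.05 on probe 1 (interval −0.29 to 0.20, adjusted p = 0.844 by limma). High minus low was below 0 in 24 of 25 alternatives on probe 2 and in 20 of 25 on probe 1. After quantile normalization the difference was 0.25 on probe 2 and 0.01 on probe 1, and with the array median in place of the 75th percentile it was −0.12 and 0.08. On probe 2 it was −0.11 without low 2 and −0.48 with slide as a block. With that block probe 1 was at −0.26 for high minus low and at −0.28 for late minus early drinkers (adjusted p = 0.538 and 0.919 by limma).

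The pair of P2rx7 probes moved together over the 12 arrays, with a Pearson r of 0.78 and a Spearman rho of 0.72. After the mean of each group was taken from its arrays, r was 0.68. The points share array, slide and scaling. The other genes with more than 1 probe had a lower r or the opposite sign. It was 0.47 for P2rx6, whose probes start 6500 bases apart, and −0.52 for P2rx4.

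The genes most like P2rx7 probe 1 over the 12 arrays were Osgep (r = 0.88), the transcript AK042563 (r = 0.86) and Srrm4 (r = 0.85), out of 26104 probes well above background on every array. Srrm4, a splicing factor of neurons, ranged from 1.22 to 1.68. None of the 3 was another P2X gene. Among the leading probes of the P2X genes, r with P2rx7 probe 1 was 0.04 for P2rx4, 0.08 for P2rx2, 0.27 for P2rx3, 0.05 for P2rx5 and 0.11 for P2rx6. The leading probe, that of highest mean, was probe 1 for P2rx4 and for P2rx6. P2rx4 probe 1 carries a stretch found elsewhere in the genome, and P2rx6 probe 1 had no RefSeq match.

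The summed level of 14 microglial markers, on a scale where 1 is the 75th percentile of the array, was 32.8 to 34.2 in water and 30.2 to 38.3 in alcohol, and all 14 were well above background on every array. Of the 14, 9 were lower in alcohol and 5 higher. Their sum correlated with P2rx7 at r = −0.43 on probe 1 and −0.44 on probe 2. The 5 oligodendrocyte markers, the myelin gene Mbp among them, summed to 113.6 to 127.4 in water and 118.7 to 145.8 in alcohol, and 4 of 5 were higher. Their r with P2rx7 was −0.62 and −0.78. Blood markers (4 genes, hemoglobin among them) summed to 120.4 to 147.7 in water, 96.5 to 148.5 in low, 104.7 to 131.9 in early high and 74.7 to 102.1 in late high drinkers, with r of 0.46 and 0.62. Of the other lists, neuron markers had r of −0.62 and −0.55 with the P2rx7 probes, astrocyte markers −0.51 and −0.64, and hypothalamic markers −0.45 and −0.49. Alcohol means were lower for 5 of 5 pituitary markers and 4 of 4 choroid plexus markers measured, and higher for 4 of 4 thalamic markers, 4 of 5 neuron and 5 of 6 astrocyte markers. For the pituitary, choroid plexus and thalamic sums r with P2rx7 lay between −0.37 and 0.46. All these r values are over the same 12 arrays, and the part of these cell types in the P2rx7 values was not tested.

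P2rx4, which lies near P2rx7 on chromosome 5, was the steadiest of the family. Probe 1 (chr5:123178612-123178671, plus strand) was at −1.75, −1.90 and −1.89 in water and at −1.94, −1.99 and −1.86 in low drinkers. It was at −1.89, −1.82 and −1.98 in early high and at −1.92, −1.83 and −1.93 in late high drinkers. The groups overlapped throughout, and the SD over the 12 arrays was 0.07, the lowest of the 8 detected probes, against 0.43 for the highest.

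The second P2rx4 probe (chr5:123177761-123177820) ranged from −3.24 to −2.84 in water and from −3.12 to −2.82 in alcohol. Alcohol minus water was −0.06 (standard error 0.05) on probe 1 and 0.05 (standard error 0.08) on probe 2. Between high and low drinkers the difference was 0.03 on probe 1 (95% interval −0.10 to 0.16) and −0.003 on probe 2 (interval −0.21 to 0.20). Late minus early drinkers was 0.001 on probe 1 (interval −0.15 to 0.15). The intervals of probe 1 were the narrowest of the 9 P2X probes tested.

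P2rx4 probe 1 carries a stretch found elsewhere in the genome, shown here by its bases 31 to 60 with the stretch in capitals.
P2rx4 probe 1, bases 31 to 60: catctCAGGCTGGCCTCAAACtccaagaca
A run of 16 of its bases occurred in 18 of 32851 RefSeq promoter windows (GRCm38.p6, 300 bases at gene starts, either strand), that is 0.0548%, and 12 of the windows held the run at bases 36 to 51. Each of the other P2X probes had such a run in 2 windows or fewer. Whether transcripts other than P2rx4 add to the signal of probe 1 was not tested. Probe 2, in the coding part, had no such run. The gene Camkk2, a calcium/calmodulin-dependent kinase, has probes on the opposite strand starting 2913 and 4743 bases from P2rx4 probe 1.

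P2rx2 and P2rx3, which form channels alone or jointly, were lowest on slide 3. The P2rx2 probe (chr5:110769903-110769962, minus strand) was at −2.40, −2.50 and −2.52 in water and at −2.61, −2.15 and −2.53 in low drinkers. It was at −2.46, −2.50 and −2.80 in early high and at −2.82, −2.66 and −2.76 in late high drinkers. The 4 arrays of slide 3 held the 4 lowest values, from −2.82 to −2.66, and the other 8 arrays began at −2.61. Among all probes well above background on every array, 3.81% had slide 3 wholly below the other slides.

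Late high minus early high drinkers was −0.16 for P2rx2 (standard error 0.13, adjusted p = 0.650 by limma). Inside slide 3 the mean of the late high arrays was 0.06 above early high 3 for P2rx2, with late high 1 below it. Its high minus low difference was −0.24 (95% interval −0.49 to 0.01, adjusted p = 0.342 by limma), and all 6 high arrays lay below the low mean. That difference was −0.09 without low 2 and −0.11 with slide as a block.

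P2rx3 probe 1 (chr2:84838898-84838957, minus strand) was at −2.82, −2.60 and −2.64 in water and at −2.61, −2.49 and −2.77 in low drinkers. It was at −2.73, −2.58 and −2.81 in early high and at −2.83, −2.99 and −2.98 in late high drinkers. The 3 late high arrays were below the other 9, although late high 1 and water 1 nearly met, as they were for 5.24% of probes detected on every array and for 1 of the 8 P2X probes so detected. High minus low was −0.20 (standard error 0.08, unadjusted p = 0.0401, adjusted p = 0.302 by limma), and late minus early was −0.22 (standard error 0.10, unadjusted p = 0.0456, adjusted p = 0.403 by limma). Inside slide 3 the late high mean was 0.12 below early high 3, and inside slide 2 the early high mean was 0.03 below the low mean. After quantile normalization high minus low was 0.01. It was −0.08 with slide as a block and −0.19 with scan day as a block (unadjusted p = 0.571 and 0.0941 by limma).

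P2rx3 probe 2 (chr2:84836382-84836441), designed to a cDNA clone, had no array well above background, so no difference is given. The genes closest to P2rx2 over the arrays were Cyp2u1 (r = 0.96), Samd4 (r = 0.94) and C130026L21Rik (r = 0.94). The closest to P2rx3 probe 1 were Gm11567 (r = 0.95), Xkr8 (r = 0.94) and Ror2 (r = 0.94). P2rx2 and P2rx3 had r = 0.66 with each other, the highest of the 15 pairs of leading P2X probes, over arrays that share slides.

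P2rx5 and P2rx6 had dim probes, and their differences between high and low drinkers rested in part on low 2. The P2rx5 probe (chr11:72985662-72985721, plus strand) ranged from −3.16 to −2.99 in water and stood at −3.19, −2.71 and −3.18 in low drinkers. It was at −3.19, −3.32 and −3.08 in early high and at −3.29, −3.29 and −3.01 in late high drinkers. Low 2 alone was above the water pools, and the groups otherwise overlapped. Its high minus low difference was −0.17 (95% interval −0.44 to 0.10, adjusted p = 0.487 by limma), 0.07 after quantile normalization and −0.01 without low 2. It was −0.38 with slide as a block and −0.26 without low 1 or with scan day as a block.

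P2rx6, a subunit that forms channels poorly on its own, had a pair of detected probes with different patterns. Probe 2 (chr16:17571293-17571352, plus strand) was at −3.05, −4.12 and −3.91 in water and at −3.91, −2.75 and −3.17 in low drinkers. It was at −3.86, −3.89 and −3.72 in early high and at −3.76, −3.80 and −3.98 in late high drinkers. Water 1, low 2 and low 3 stood above all other arrays, and the SD was 0.57 in water and 0.59 in low against 0.09 in early and 0.12 in late high drinkers. High minus low was −0.56 (interval −1.16 to 0.05, adjusted p = 0.351 by limma) and was below 0 in 25 of 25 alternatives. Its size depended on the low pools, at −0.29 without low 2 and −0.87 without low 1 (unadjusted p = 0.00615, adjusted p = 0.0623 by limma). It was −0.97 with slide as a block (adjusted p = 0.286 by limma) and −0.87 with scan day as a block (adjusted p = 0.0529 by limma).

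P2rx6 probe 1 (chr16:17577793-17577852, plus strand), designed to another cDNA clone, begins 6500 bases further along, beyond a probe of Slc7a4 on the opposite strand. It had no RefSeq match, nor did P2rx3 probe 2, and both kept the array's gene name. It ranged from −3.36 to −3.15 in water and from −3.77 to −2.84 in alcohol, and water 1 and low 3 did not stand out. High minus low was −0.22 (interval −0.54 to 0.09, adjusted p = 0.453 by limma), 0.05 after quantile normalization and −0.11 without low 2.

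**Figure D2:**
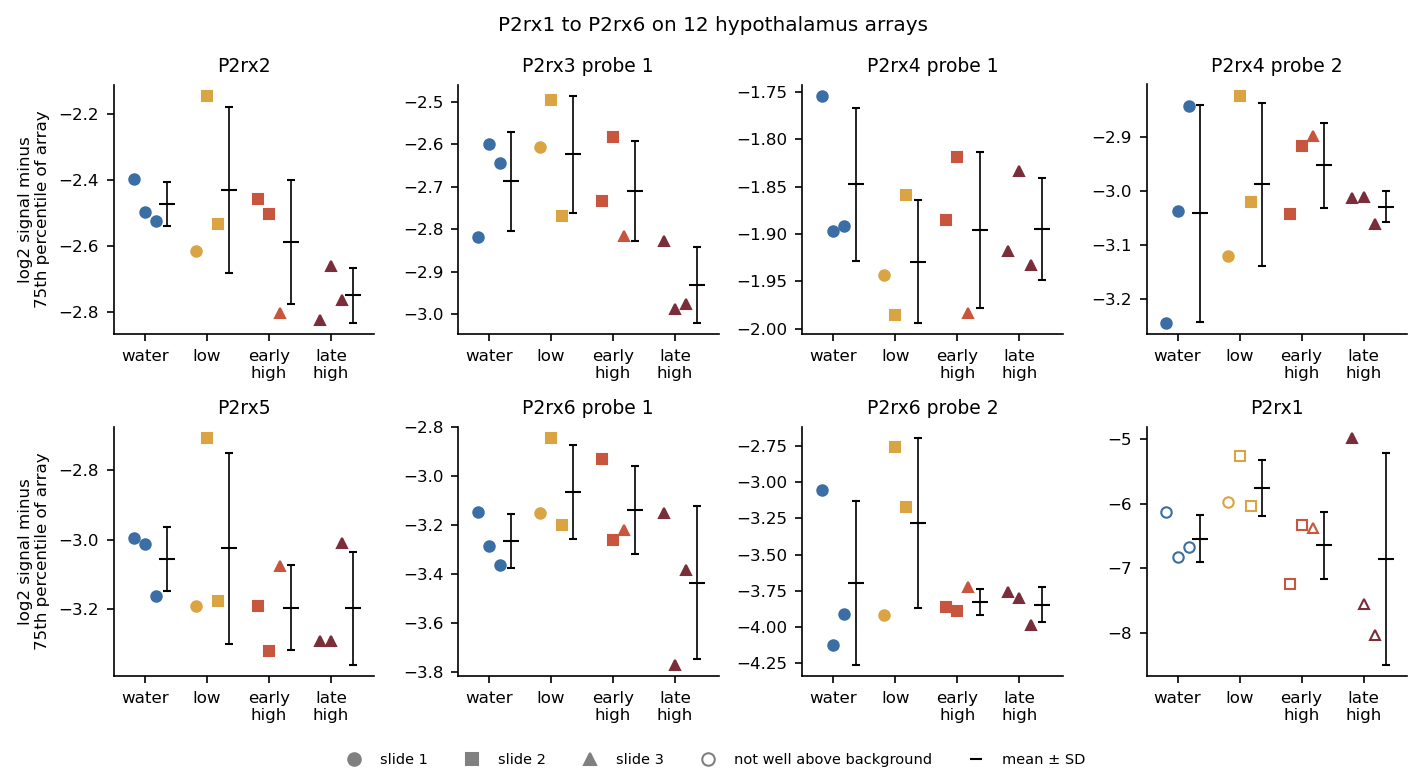
The probes of P2rx1 to P2rx6 on each array (vertical axes, log2 signal minus the array's 75th percentile, with a scale of its own for each probe) by group, drawn as for P2rx7 with bars for the mean ± SD of 3 pools. P2rx2 is lowest on the 4 arrays of slide 3 (triangles), low 2 is the highest point for P2rx2, P2rx3 probe 1, P2rx4 probe 2, P2rx5 and both P2rx6 probes, and P2rx1 has 1 filled point.

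The P2rx1 probe (chr11:72828186-72828245) was well above background on late high 1 only, at −4.98. The other 11 arrays lay between −8.03 and −5.26. The vascular and smooth muscle markers, which include genes of the cells where P2X1 is best known, had their highest sum on late high 1, with sums of 14.5 to 17.8 on the others. The blood markers, with the platelet gene Ppbp among them, summed to 102.1 on that array. Their part in the P2rx1 signal was not tested.

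Across the family, low drinkers against high drinkers asked whether the amount drunk went with P2X expression. Of the 9 P2X probes tested, 0 passed an adjusted p of 0.05 by limma, against 0.0744% of all probes tested, and the lowest adjusted p was 0.302. At an unadjusted p of 0.05, 1 of 9 passed (P2rx3 probe 1), against 15.5% of all probes. The count was 0 after quantile normalization (5.73% of all probes), with the array median (4.25%), with no scaling (16.0%), with normexp (7.80%) and with slide as a random block (13.9%), and it was 3 with scan day as a block (26.6%). The P2X probes were lower in high drinkers in 8 of 9 cases, as were 65.6% of all probes, and their median difference was −0.20 against −0.06 over all probes. Without P2rx6 probe 1, which had no RefSeq match, 7 of 8 were lower. This direction depended on the scaling. After quantile normalization 2 of 9 were lower, with a median of 0.05 against 0.05 over all probes, and with the array median 6 of 9 were lower, with a median of −0.07 against 0.07. The array median thus moved the middle of all probes by more than 0.1. Relative to the median of all probes, 6, 5 and 6 of the 9 were lower under the 3 scalings. In the same contrast 5 of 5 pituitary markers (median −1.42) and 4 of 4 choroid plexus markers (median −0.24) were lower. Thalamic and blood markers were lower in 3 of 4 cases each. The neuron, astrocyte, oligodendrocyte, microglial and hypothalamic markers were lower in 2 of 5, 1 of 6, 1 of 5, 6 of 14 and 3 of 10 cases. The part of tissue content in the P2X values was not tested.

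Low 2 bore on these values. It was the highest of the 12 arrays for 6 of the 9 P2X probes and for 23.4% of all probes detected on every array. Without it, 7 of 9 were lower in high drinkers, the median difference was −0.09, and 0 passed an unadjusted p of 0.05, against 8.99% of all probes. Without low 1, which was on another slide and scan day, the median was −0.26 against −0.07 over all probes, and 3 passed an unadjusted p of 0.05, with 0.0623 as the lowest adjusted p by limma. In that fit 25.3% of all probes passed an unadjusted p of 0.05 and 8.03% an adjusted one.

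Late against early high drinkers compared pools by the labels early and late, whose meaning is not given in the sources used here. All 3 late high arrays were on slide 3, with early high 3, and early high 1 and 2 were on slide 2. For all but early high 3, group and slide cannot be told apart in this contrast. Again 0 of 9 passed an adjusted p of 0.05 by limma, as did 0 of 33141 probes in all. At an unadjusted p of 0.05, 2 of 9 passed (P2rx7 probe 2 and P2rx3 probe 1), against 12.1% of all probes. The count was 0 after quantile normalization (1.81% of all probes), with the array median (2.12%), with no scaling (15.8%) and with normexp (3.45%). It was 1 (P2rx7 probe 2) with slide as a block (5.60% of all probes) and with scan day as a block (15.7%). The late high mean was lower for 8 of 9 P2X probes and for 57.6% of all probes, with a median of −0.08 against −0.03. With quantile normalization 5 of 9 were lower, with the array median 6 of 9, and with no scaling 4 of 9, with a median of 0.07 against 0.12 over all probes. In the same contrast 4 of 4 blood markers (median −0.37), 1 of 5 pituitary markers (median 0.70) and 0 of 4 thalamic markers (median 0.87) were lower. The choroid plexus, neuron, astrocyte, oligodendrocyte and microglial markers were lower in 2 of 4, 2 of 5, 2 of 6, 1 of 5 and 3 of 14 cases. Their part in the P2X values was not tested.

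**Figure D3:**
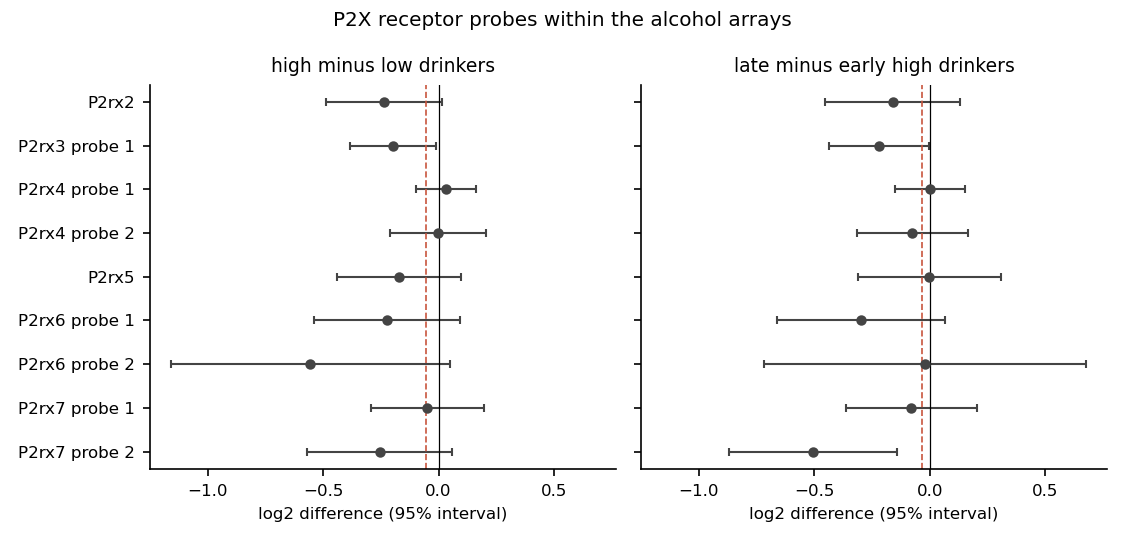
Log2 differences (horizontal axes) of the 9 P2X probes with a value on every array, for high minus low drinkers and for late minus early high drinkers, with 95% intervals from the limma fit of 12 arrays. The solid line is 0 and the dashed line the median of all probes tested (−0.06 and −0.03). The intervals of P2rx3 probe 1 lie below 0 on both sides and that of P2rx7 probe 2 only for late minus early, before adjustment.

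Of the 9 probes, 6 had a lower alcohol than water mean, as did 40.4% of all probes, and the median difference was −0.07 against 0.03. Only P2rx7 probe 2 had groups that did not overlap. Outside P2rx7, the differences between alcohol and water ran from −0.12 for P2rx2 to 0.05 for P2rx6 probe 1, and each but that of P2rx4 probe 1 was smaller than its standard error. Over 23 alternatives P2rx6 probe 2 ran from −0.22 to 0.36 and P2rx3 probe 1 from −0.13 to 0.08. Of these probes only P2rx2 and P2rx6 probe 1 kept their sign throughout.

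The rest of the purinergic pathway was read from 6 lists, on the probe with the highest mean for each gene. Of 41 genes, 39 were on the array, 36 were tested and 31 were well above background on all 12 arrays. In high minus low drinkers 0 of 36 passed an adjusted p of 0.05 by limma. At an unadjusted p of 0.05, 6 passed, all lower, against 15.5% of all probes tested in either direction. Of these 6, 4 were among the 31 genes well above background on all 12 arrays. In late minus early drinkers 0 of 36 passed, and at an unadjusted p of 0.05 there were 3 higher and 4 lower, against 12.1% of all probes. Of the 31 detected genes, 0 had alcohol arrays wholly on one side of the water arrays, where 0.325% of all probes lay below and 0.982% above.

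The inflammasome and interleukin 1 list lies downstream of P2X7. All 6 of its detected genes had a lower mean in high than in low drinkers, with a median of −0.17, against 65.6% of all probes and a median of −0.06. After quantile normalization 5 of 6 did so and with the array median 4 of 6, both with a median of −0.04. The median was −0.08 without low 2 and −0.26 without low 1. Pituitary and choroid plexus markers were also lower in this contrast, as given above with the other marker lists. The part of tissue content in the values of this list was not tested. Nlrp3, the sensor of the complex, ranged from −3.83 to −3.32 in water, −3.55 to −3.23 in low, −3.72 to −3.54 in early high and −4.26 to −4.11 in late high drinkers. The late high arrays were below all others, as for 5.24% of probes detected on every array. High minus low was −0.49 (standard error 0.11, adjusted p = 0.119 by limma), and it was below 0 in 25 of 25 alternatives, from −0.55 to −0.15. Without low 1 it was −0.55 with an adjusted p of 0.0382, where 2505 of 31195 probes passed in all, and without low 2 it was −0.39 with an adjusted p of 0.434 by limma, where 0 probes passed and 2742 had an unadjusted p under 0.05. Late minus early was −0.55 (standard error 0.13, adjusted p = 0.324 by limma).

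Casp1, the protease that cuts interleukin 1β, was at −2.53 ± 0.18 in water, −2.47 ± 0.22 in low, −2.68 ± 0.12 in early high and −2.86 ± 0.08 in late high drinkers (SD, n = 3). High minus low was −0.30 (standard error 0.11, adjusted p = 0.250 by limma). The interleukin genes themselves were dim, with Il1b well above background on 0 arrays, Il1a on 1 and the antagonist Il1rn on 2, so no fold is given for them.

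Of the receptors, the metabotropic P2Y receptors showed no common direction, with 4 of 6 detected genes lower in high drinkers and a median of −0.04, and 0 of 6 lower after quantile normalization or with the array median. P2ry12, a marker of microglia, had a high minus low difference of 0.15 (standard error 0.09, adjusted p = 0.459 by limma). P2ry1 was at 0.07 ± 0.10 in low, 0.31 ± 0.06 in early high and −0.08 ± 0.14 in late high drinkers (SD, n = 3), and late minus early was −0.39 (standard error 0.10, adjusted p = 0.324 by limma). Adora2a, an adenosine receptor of striatal and other neurons, was at 0.84 ± 0.19 in water, 0.75 ± 0.04 in low, 0.65 ± 0.23 in early high and 0.32 ± 0.07 in late high drinkers (SD, n = 3). Its high minus low difference was −0.26 (standard error 0.10, adjusted p = 0.282 by limma), and −0.01 with slide as a block.

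None of the enzymes and transporters that set ATP and adenosine outside the cell passed the adjusted threshold in high minus low drinkers. Of 7 detected ectonucleotidases, which break ATP down, 5 were lower in high drinkers, with a median of −0.05. With the array median 3 of 7 were lower, with a median of 0.08. Enpp1 was at −0.16 (standard error 0.09), at −0.27 without low 2 and at −0.01 after quantile normalization. Alpl, alkaline phosphatase, had the widest alcohol minus water difference of that list, 0.21 (standard error 0.09), with water arrays from −0.73 to −0.38 and alcohol arrays from −0.50 to −0.16. Slc17a9, the transporter that loads ATP into vesicles, had a high minus low difference of −0.27 (standard error 0.11, adjusted p = 0.282 by limma), which was −0.14 without low 1, 0.03 with slide as a block and 0.16 after quantile normalization. The nucleoside transporters Slc29a2 and Slc29a3 had high minus low differences of 0.12 (standard error 0.06) and −0.20 (standard error 0.31). Slc29a3 spread from −3.99 to −2.17 among the 3 low pools, so its group mean rests on pools far apart. Without low 1 its difference was −0.69 (adjusted p = 0.0461 by limma), with scan day as a block it was also −0.69 (adjusted p = 0.0370 by limma), and without low 2 it was 0.22 (adjusted p = 0.826 by limma). Among all probes 8.03% passed the adjusted threshold without low 1 and 11.5% with scan day as a block.

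**Figure D4:**
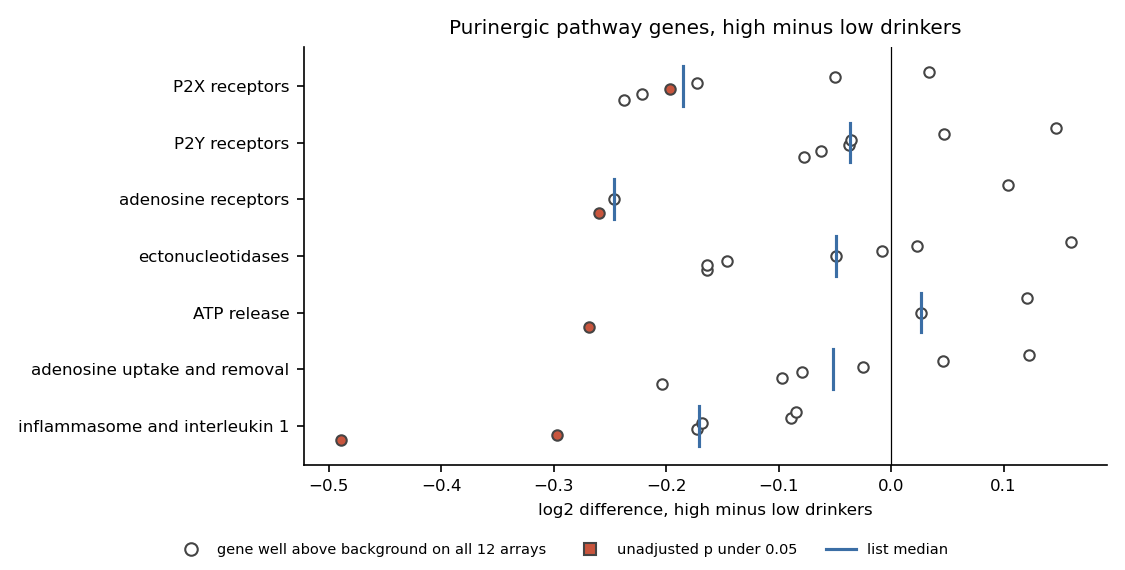
High minus low drinkers (horizontal axis, log2 difference) for each gene well above background on all 12 arrays, by list, with filled points for an unadjusted p under 0.05 and a bar for the median of the list. All 6 inflammasome and interleukin 1 genes lie left of 0, with Nlrp3 at −0.49, and no gene of any list passed the adjusted threshold.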

How the data were processed

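Agilent Feature Extraction made the signal intensity that the authors deposited, already background-corrected within each array, and a series table of intensity per probe came with it. The deposited data give 10.5.1.1 as the version of grid placement and mm9 for probe positions. The paper's methods name another version of the software. Each processed signal was put on a log2 scale, and the array's 75th percentile over its 43379 spots other than controls was subtracted. After the study's methods, spots called outliers or below a signal/noise of 2 were left out, and tests needed values on most arrays of each group compared. Levels printed per array are unfiltered. The deposited flags gave which spots were well above background. One limma fit (version 3.58.1, R 4.3.3) with 4 group means over all 12 arrays gave the contrasts inside the alcohol arrays, and p-values were adjusted by Benjamini-Hochberg over all probes tested. The fit was tested on simulated data. Array gene names were updated through RefSeq accessions for 25263 probes.

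The members, lists and tests were chosen with earlier results of these data known. Every P2X probe is described. For the oligodendrocyte list, 1 marker is not reported here, and the list's values were computed without it. From each pathway list the text names the gene with the lowest p for high minus low drinkers and the one with the widest alcohol minus water difference among genes detected on all arrays. Others named, such as Il1a, Il1b and Il1rn, were chosen after their values were seen. Alternatives changed the scaling, background correction, filters, the series table, slide, scan day or replicate block, the methods' t-test and each array left out. The fit with 3 group means was chosen after seeing the data. The number of arrays limits precision.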

Additional observations from a re-analysis of the deposited data

Results flagged for a closer look

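Of 21 measures over the 9 alcohol arrays (the 11 P2X probes and 10 named pathway genes), 3 had 1 array far from the rest, where chance gives about 1.05. P2rx5 was highest on low 2 at −2.71, 0.496 of the range above the next (−3.01). Enpp1 was highest on low 1 at −1.79, 0.630 of the range above the next (−2.10). Slc17a9 was also highest on low 1, at −3.48, 0.499 of the range above the next (−3.83).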

How the results depend on the processing

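The count of P2X probes whose alcohol and water arrays did not overlap was 1, and it was 0 after quantile normalization, array median scaling, no scaling, normexp with an offset of 50, and with spots not well above background missing. Leaving out single arrays gave counts from 1 to 2, the latter without early high 3. For P2rx7, whose lower level in alcohol chose the family, the difference between alcohol and water ran from −0.26 to −0.17 on probe 1 and from −0.73 to −0.31 on probe 2 over 23 alternatives. No P2X probe passed the adjusted threshold for high minus low or late minus early drinkers under any alternative run. For the pathway lists, 5 genes passed for high minus low with scan day as a block, all lower (Adora3, Slc29a3, Nlrp3, Il1a and Il1rn, of which Il1a was well above background on 1 array, Il1rn on 2 and Adora3 on 6), and leaving out single arrays gave 0 to 3, the latter without low 1. High minus low changed sign for P2rx7 probe 1 with quantile normalization (0.0108), array median (0.0810), no scaling (0.0786) and normexp (0.000698), and over single arrays left out from −0.11 to 0.0203 (above 0 without late high 3), for P2rx4 with its other probe (−0.00299), and after quantile normalization for P2rx3 (0.00770), P2rx5 (0.0671), P2rx6 probe 1 (0.0464), P2rx7 probe 2 (0.255) and P2rx4 probe 2 (0.236), the last being above 0 in 6 of 25 alternatives. The cause was not tested. Replicate numbers did not pair the arrays (r of −0.09 to 0.18 between same-numbered arrays, 5 of 12 matching their own number best), and with the replicate as a block 0 P2X probes and 0 pathway genes passed in either contrast. Over all probes, calls for high minus low went from 24 to 0 after quantile normalization and to 3714 with scan day as a block, and were 0 without low 2 and 2505 without low 1.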
